A study of Mus musculus with 14 samples.

Results

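The genes described here are the 55 mouse genes that encode collagen chains (44 genes, symbols of the form Col, number, a, number) or laminin chains (11 genes, symbols Lama, Lamb or Lamc with a number). They were taken by symbol from the 40481 genes of a bulk RNA-seq count table, all 55 are protein coding, and all passed the filter on low counts. The libraries came from the muscularis, the contractile outer layer of the intestine and the nerves, vessels and interstitial cells in it, dissected by hand from the colon and jejunum of C57BL/6 mice and then flash frozen. The labels give the genotypes as "Carmn iKO" (KO below) and "WT mTmG" (WT below). Carmn encodes a long non-coding RNA found in smooth muscle, and mTmG is a double-fluorescent Cre reporter allele. Whether the KO mice also carry mTmG, the Cre driver, the deleted segment, ages and treatments are not stated by the labels. KO colon, WT colon, KO jejunum and WT jejunum had 3 bulk libraries each, named below by the tags in their labels (t1, t4, t6, t7 or m1), and colon also had 1 library of single nuclei per genotype. The labels do not say that replicates came from separate animals, so p-values measure the spread between these libraries, which may in part be technical.

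Collagen chains assemble as trimers. The fibrillar collagens (types I, III, V, XI and their relatives) form the tensile fibrils of connective tissue, type IV collagen forms the sheet of basement membranes, type VI forms beaded filaments beside cells, and FACIT collagens attach to fibril surfaces. Laminins are trimers of an alpha, a beta and a gamma chain that bind cells to the basement membrane, and in the gut muscle coat each smooth muscle cell is wrapped in such a membrane while fibroblast-like cells make much of the interstitial collagen.

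Total counts per bulk library ran from 24254905 to 44315104. Carmn itself, in CPM of total counts, was higher in the bulk libraries labelled KO than in those labelled WT, at 506.9 (m1), 305.3 (t4) and 719.3 (t6) against 260.9, 177.7 and 348.5 in colon, and at 809.0, 870.0 and 906.1 against 228.4, 198.2 and 348.7 in jejunum. This goes against the label, and since the deleted segment is not given, these counts may come from a part outside it and then check nothing. KO and WT below are therefore the labels of the libraries. In the nuclei Carmn was lower in the KO library (220 CPM, 1345 UMIs, against 661 CPM and 5463 UMIs in WT). KO colon t4 stood apart on the first principal component of all genes, with a score of -114, and KO jejunum m1 on the second, with a score of -110. These libraries also held the highest summed macrophage markers of their tissue (8 genes), with 1784 CPM in KO colon t4 against 372 to 739 in the other 5 colon libraries and 2064 CPM in KO jejunum m1 against 204 to 1118 in the other 5 of jejunum. KO jejunum m1 had in addition the highest sums for 10 smooth muscle markers (93637 CPM, the other jejunum libraries 48314 to 53352) and 9 fibroblast markers (2758 CPM, the others 1279 to 1623). Not every marker of these sums was highest in m1. Des (26357 CPM) and Dcn (1635) were, while Smtn (765), Mylk (3957) and P2ry1 (11.8) had their lowest jejunum value there. In colon the smooth muscle sum was 34878 to 47530 CPM in KO and 51782 to 75568 in WT. No marker of those 3 lists was at 0 in any bulk library. The part of these markers in the results below was not tested.

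In the bulk libraries the abundant members were basement membrane, fibrillar and beaded-filament chains. CPM below are normalised counts, on library sizes scaled by TMM. Ranked by CPM per kilobase of exon averaged over the 12 libraries, Col4a1 and Col4a2, the chains of the common type IV trimer, came first and second. They were followed by Col1a1 and Col6a1, Col3a1, Col1a2 and Col6a2, and then by Lamb2, the first of the laminins. WT colon held 205 ± 62.4 CPM per kilobase of Col4a1 (SD, n = 3) and WT jejunum 151 ± 2.46, whereas Col26a1 in WT colon was at 0.351 ± 0.132. The spread within groups overlaps between neighbours in this order, for example between Col4a1 and Col4a2 in WT colon (166 ± 50.4), so the order of neighbours is not resolved. The 55 genes together took 0.802% to 1.51% of the counts of the WT libraries and 0.955% to 2.70% of those of the KO libraries, with the highest share in KO colon t4 and the next in KO jejunum m1 (1.61%).

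The summed levels of the role groups show how far those 2 libraries depart from the rest. The 11 fibrillar genes summed to 3088 (m1), 14116 (t4) and 2626 (t6) CPM in KO colon and to 5343 (t1), 3029 (t6) and 6007 (t7) in WT colon. In jejunum they summed to 6906 (m1), 2987 (t1) and 2324 (t4) CPM in KO and 2818, 2422 and 2710 in WT. For the fibrillar sum, KO colon t4 was thus above every colon library while the other 2 KO libraries were near or below the bottom of the WT range, and in jejunum KO m1 alone was far above WT. The 6 type IV genes summed to 3516, 7574 and 5190 CPM in KO colon and 2981, 1875 and 3519 in WT colon, and to 6737, 2468 and 2545 in KO jejunum and 2098, 2174 and 2201 in WT jejunum. Here KO jejunum lay above WT in every library, and in colon KO m1 lay just below the highest WT library.

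**Figure D1:**
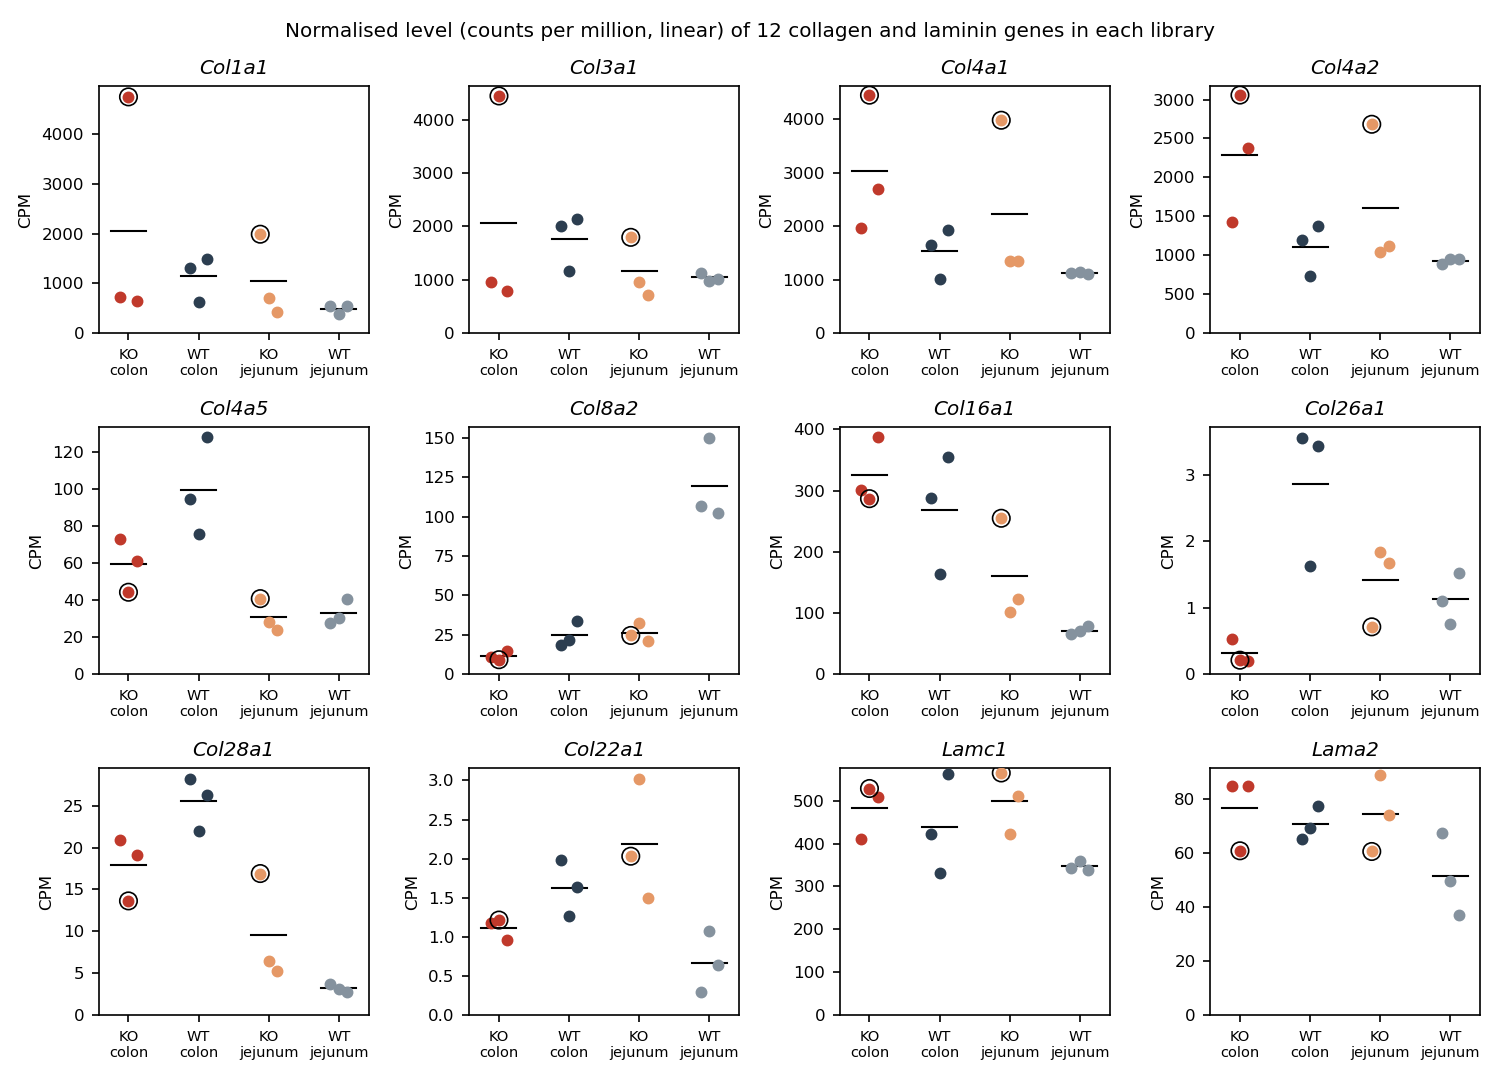
Normalised counts (CPM, linear axes) of 12 collagen and laminin genes in each of the 12 bulk libraries. Points are libraries, bars are the group means of 3 libraries, and circles mark KO colon t4 and KO jejunum m1. Col1a1 reaches 4757 CPM in KO colon t4 against 629 to 1490 in the other 5 colon libraries, and Col8a2 is at 102 to 150 CPM in WT jejunum against 20.8 to 32.1 in KO jejunum.

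The contrast of WT colon with WT jejunum asks which chains the 2 stretches of gut muscle differ in without the knockout. Of the 55 genes, 4 passed edgeR's quasi-likelihood test at an adjusted p of 0.05, with 3 higher in colon and 1 lower, where 1.56% of all 20886 genes tested passed (0.694% higher and 0.862% lower). At an unadjusted p of 0.05 16 members passed (29.1%, against 13.1% of all genes), and 42 of 55 log2 fold changes were positive (76.4%, against 54.3%). DESeq2 called 7 members, where it called 5.53% of all genes. The median over the members was 0.46 on the log2 scale, beside 0.04 over all genes.

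Col8a2, a chain of the short-chain type VIII network, was the member lower in colon. It stood at 18.7, 21.7 and 33.8 CPM in WT colon and 107, 150 and 102 in WT jejunum, so that every jejunum library was above every colon library (log2 fold change -2.28 ± 0.29 SE, adjusted p = 0.00444). Col28a1, a collagen of nerve-associated cells, stood at 28.2, 22 and 26.3 CPM in colon and 3.72, 3.15 and 2.77 in jejunum, again without overlap (2.99 ± 0.40, adjusted p = 0.00623). Col4a5, a minor type IV chain, was at 94.5, 76 and 128 CPM in colon and 27.8, 30.6 and 40.5 in jejunum (1.60 ± 0.28, adjusted p = 0.0181). The FACIT chain gene Col16a1 was at 288, 164 and 355 CPM in colon and 64.9, 69.8 and 78.3 in jejunum (1.92 ± 0.36, adjusted p = 0.0247). The colon values of both genes lay wholly above those of jejunum. The calls of Col8a2 and Col28a1 held when any 1 library was left out. Col4a5 lost its call without WT colon t1 (adjusted p = 0.0698), WT colon t7 (0.0507), WT jejunum t1 (0.109) or WT jejunum t6 (0.0926), and Col16a1 without WT colon t1 (0.108), WT colon t7 (0.0612) or any WT jejunum library (0.0876 to 0.129). Next by p came Col25a1 (2.11, adjusted p = 0.0639) and Col4a3 (-1.77, adjusted p = 0.106), which did not pass edgeR's test and were called by DESeq2. The marker sums of epithelium differed widely between WT colon libraries, with 5014 CPM of 8 secretory genes in t6 and 100 in t7, and their part was not tested.

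The stretches before the starts of the 4 genes that passed are shown because these members separate the tissues. They are the bases of the RefSeq promoter windows (build GRCm38.p6, 250 bases before the start) that lie outside annotated exons, on the strand of the gene, with capitals for the letters CCAAT. The window of Col16a1 also holds a CCAAT at position -113 from the start, outside the 72 bases printed. Col8a2 is the window chr4:126286544-126286792 (plus strand), Col28a1 is chr6:8192618-8192867 (minus), Col4a5 is chrX:141475169-141475384 (plus) and Col16a1 is chr4:130047590-130047661 (plus).
Col8a2: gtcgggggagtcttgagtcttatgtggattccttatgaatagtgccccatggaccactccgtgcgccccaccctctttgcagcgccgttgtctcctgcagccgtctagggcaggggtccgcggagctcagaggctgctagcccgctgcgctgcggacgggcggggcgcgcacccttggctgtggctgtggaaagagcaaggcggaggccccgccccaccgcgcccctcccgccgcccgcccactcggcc
Col28a1: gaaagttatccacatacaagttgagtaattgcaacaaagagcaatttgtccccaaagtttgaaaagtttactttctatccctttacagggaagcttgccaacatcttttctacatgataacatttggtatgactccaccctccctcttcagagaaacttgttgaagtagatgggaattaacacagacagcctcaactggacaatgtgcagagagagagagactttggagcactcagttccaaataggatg
Col4a5: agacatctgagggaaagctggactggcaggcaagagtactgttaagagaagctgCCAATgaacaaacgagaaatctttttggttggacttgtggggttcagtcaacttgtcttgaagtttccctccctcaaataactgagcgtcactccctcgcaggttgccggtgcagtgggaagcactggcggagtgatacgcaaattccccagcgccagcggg
Col16a1: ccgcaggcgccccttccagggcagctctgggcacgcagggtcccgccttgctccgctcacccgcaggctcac
Of the 55 genes, 40 had a window from 250 bases before to 50 after the start, and 4 motifs were searched in it on both strands, each on its own. CCAAT was present in 14 of the 40 members (35.0%) and in 37.4% of all 32817 windows. GGGCGG was present in 25 of 40 members (62.5%, against 35.6% of all windows), CAGAC in 25 (62.5%, against 49.6%) and the CArG box in 2, Col6a4 and Lama2 (5.0%, against 1.63%). A member was counted when any of its windows held the motif, and some members had several windows. The member shares are therefore not strictly comparable with the shares per window. A match is a run of letters and shows no binding.

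KO colon against KO jejunum gave no member past the threshold of edgeR's test, where 1.29% of all genes passed. At an unadjusted p of 0.05 14 members passed (25.5%, against 17.7% of all genes), and DESeq2 called 8, where it called 6.83% of all genes. The smallest p belonged to the fibrillar chain Col11a1 (1.57 ± 0.35, adjusted p = 0.0559), Col8a2 (-1.16, adjusted p = 0.0693), Col26a1 (-2.16, 0.0819), Col24a1 (1.81, 0.0842), Col4a3 (-1.72, 0.1) and Col4a5 (0.95, 0.108). Without KO jejunum m1 4 members passed (1.7% of all genes), without KO colon t4 2 (2.84%), without WT colon t7 2 (1.61%) and without WT colon t6 1 (1.16%). Col8a2 and Col4a5 kept the sign they had between the WT tissues.

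The contrast of KO with WT asks which chains differ with the Carmn genotype label. In colon 1 of 55 members passed edgeR's test, and it was lower in KO (0.388% of all genes passed, 0.273% lower). At an unadjusted p of 0.05 3 members were higher and 7 lower (18.2% in all), against 6.7%, 7.79% and together 14.5% of all genes. Of the 55 log2 fold changes 33 were positive (60.0%, against 50.3%), and their median was 0.12 beside 0.0043 over all genes. The values of KO and WT did not overlap for 14 members (25.5%, against 19.2%). In jejunum 1 of 55 passed, also lower in KO (0.215% of all genes passed, 0.091% lower). There 11 were higher and 5 lower at an unadjusted p of 0.05 (29.1% in all), against 7.52%, 5.7% and together 13.2% of all genes. Positive log2 fold changes numbered 33 (60.0%, against 51.5%), and their median was 0.24 beside 0.02. The groups did not overlap for 24 members, 16 of them higher in KO (43.6% and 29.1% of members, against 22.2% and 11% of genes). DESeq2 called 4 members in colon and 7 in jejunum, where it called 4.6% and 3.85% of all genes. In bulk tissue, fewer cells of a type and less RNA per cell cannot be told apart.

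Col26a1, a little-studied collagen, was the member called in colon. KO colon held 0.521 CPM in m1, 0.208 in t4 and 0.203 in t6, and WT colon 3.55 in t1, 1.62 in t6 and 3.43 in t7. These are low counts, 24, 6 and 8 in KO and 115, 59 and 88 in WT. Every KO library was below every WT library (log2 fold change -3.17 ± 0.57 SE, adjusted p = 0.0433). In jejunum the groups overlapped, at 0.711, 1.84 and 1.68 CPM in KO and 1.1, 0.757 and 1.52 in WT (0.33, adjusted p = 0.828). The colon call was kept without KO colon m1 (adjusted p = 0.0334) and without KO jejunum m1 (0.0225) and was lost without any other single library, with adjusted p from 0.059 to 0.181. Its gene lies at chr5:136741759-136883209 (minus strand, GRCm38).

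Col8a2 (chr4:126286793-126314330, plus strand) was the member called in jejunum. It stood at 24.5 (m1), 32.1 (t1) and 20.8 (t4) CPM in KO jejunum and 107 (t1), 150 (t6) and 102 (t7) in WT jejunum, well apart (-2.21 ± 0.28, adjusted p = 0.0143). The call was lost without KO jejunum t4 (adjusted p = 0.0772), WT jejunum t1 (0.0555), t6 (0.0765) or t7 (0.0532), while the log2 fold change stayed between -2.42 and -2.02. In colon Col8a2 was also lower in every KO library, at 10.7, 9.09 and 14.9 CPM against 18.7, 21.7 and 33.8 (-1.09 ± 0.28, adjusted p = 0.123), which did not pass edgeR's test and was called by DESeq2. Its partner in the type VIII network, Col8a1, had 33, 89.5 and 30.6 CPM in KO colon against 49.6, 38.7 and 39.3 in WT, and 65.5, 23 and 21.5 in KO jejunum against 17.9, 21.5 and 17.3. Col8a1 in jejunum was high in m1, while t4 equalled the highest WT library to 3 digits, and the log2 fold change was 0.95 with m1 and 0.21 without it.

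None of the 11 fibrillar genes passed edgeR's test in either tissue, 1 had an unadjusted p below 0.05 in colon and 0 in jejunum, and DESeq2 called 1 of them in colon (Col24a1). Col1a1, a chain of type I collagen, was at 733 (m1), 4757 (t4) and 646 (t6) CPM in KO colon and 1308 (t1), 629 (t6) and 1490 (t7) in WT colon. Its positive log2 fold change of 0.84 ± 0.77 (adjusted p = 0.679) came from t4, and without that library it was -0.73. In jejunum Col1a1 was at 1990 (m1), 707 (t1) and 419 (t4) CPM in KO and 545, 373 and 536 in WT (1.10 ± 0.78, adjusted p = 0.580), and without m1 the log2 fold change was 0.19. Col1a2, its partner chain, went from 0.37 to -0.85 in colon without t4 and from 0.65 to -0.02 in jejunum without m1. Col3a1, the single chain of type III collagen, had 947, 4442 and 784 CPM in KO colon against 1998, 1164 and 2138 in WT, so that 2 of the 3 KO libraries were below every WT library. Its log2 fold change there moved from 0.22 to -1.03 without t4, and in jejunum from 0.15 to -0.34 without m1.

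The type V chains take part in setting the width of type I fibrils. Col5a2 and Col5a1 were highest in the same 2 libraries. Col5a2 was at 229, 835 and 185 CPM in KO colon and 305, 180 and 337 in WT, and at 825 (m1), 197 and 251 in KO jejunum and 174, 154 and 157 in WT. In jejunum all KO libraries were above WT (1.39 ± 0.63, adjusted p = 0.380), and the log2 fold change without m1 was 0.44. In colon it went from 0.60 to -0.40 without t4. Col5a1 went from 0.56 to -0.19 in colon and from 0.87 to 0.32 in jejunum when those libraries were left out. The third type V gene, Col5a3, had log2 fold changes of -0.27 in colon and -0.40 in jejunum, and neither KO colon t4 (73.8 CPM) nor KO jejunum m1 (37.6) was above the WT libraries of its tissue. For Col24a1, a minor fibrillar chain, the KO colon libraries were all higher, at 8.9, 21.6 and 6.33 CPM against 3.95, 3.21 and 6.01 (1.48 ± 0.46, adjusted p = 0.187). It did not pass edgeR's test, DESeq2 called it, and it remained at 0.80 without t4.

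Col4a1 and Col4a2 were higher in KO libraries of both tissues without passing the test. Col4a1 was at 1955 (m1), 4450 (t4) and 2699 (t6) CPM in KO colon and 1642, 1019 and 1931 in WT colon, with no overlap (0.99 ± 0.45, adjusted p = 0.341). In jejunum it was at 3981 (m1), 1343 (t1) and 1350 (t4) CPM in KO and 1131, 1145 and 1109 in WT, again with no overlap (0.98 ± 0.45, adjusted p = 0.378). Col4a2 was at 1432, 3058 and 2372 CPM against 1196, 728 and 1375 in colon (1.06 ± 0.40, adjusted p = 0.255) and at 2682, 1041 and 1115 against 882, 945 and 955 in jejunum (0.80 ± 0.40, adjusted p = 0.419). All 6 KO values of each gene were thus above the WT values of their tissue. In colon the log2 fold changes were 0.61 and 0.79 without t4, whereas in jejunum they were 0.23 and 0.19 without m1, so the jejunal size rests on that 1 library.

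Both genes are read in opposite directions from starts that overlap, Col4a1 at chr8:11198423-11312826 (minus strand) and Col4a2 at chr8:11312805-11449287 (plus strand) in GRCm38. Their annotated first exons share chr8:11312805-11312826. Over the 12 libraries the gene most like Col4a1 in log2 CPM was Col4a2 (Pearson r 0.986), followed by Loxl1 (0.957) and Lox (0.948), which encode enzymes that crosslink collagen and elastin. For Col1a1 the most alike genes were Col1a2 (0.964), Il1r1 (0.954) and Col5a1 (0.954), and for Lama2 they were Lifr (0.884), Gpr137b (0.883) and Chst3 (0.882). These are descriptions over 12 libraries that include KO colon t4 and KO jejunum m1.

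The other type IV chains did not follow Col4a1. Col4a5 was at 73.3, 44.3 and 61.4 CPM in KO colon and 94.5, 76 and 128 in WT colon, lower in every KO library (-0.74 ± 0.27, adjusted p = 0.241), and overlapped in jejunum (-0.09, adjusted p = 0.916). Col4a4 was at 11.4, 18.3 and 20.6 CPM in KO jejunum and 26.9, 21.9 and 52.1 in WT jejunum (adjusted p = 0.369). Its head-to-head neighbour Col4a3 overlapped in both tissues, with log2 fold changes of -0.23 and -0.28.

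The 6 type VI genes differed among themselves. Col6a1 was at 1423 (m1), 584 (t1) and 983 (t4) CPM in KO jejunum and 480, 489 and 565 in WT jejunum, higher in all KO libraries (0.96 ± 0.30, adjusted p = 0.209), and stayed at 0.59 without m1. Col6a2 was at 1008, 417 and 680 CPM against 354, 360 and 421 there, overlapping by 1 library (0.89 ± 0.34, adjusted p = 0.299). Col6a3, the long chain of the trimer, overlapped in jejunum (0.07) and was at 323, 707 and 81 CPM in KO colon against 672, 378 and 850 in WT colon (-0.77, adjusted p = 0.591). The rarer Col6a5 was lower in all KO colon libraries, at 4.56, 1.67 and 1.87 CPM against 22.2, 15.7 and 58.3 (-3.56 ± 0.88, adjusted p = 0.123). Col6a6 was lower there too, at 1.15, 0.278 and 0.329 CPM against 2.35, 1.4 and 4.8 (-2.25 ± 0.80, adjusted p = 0.234). Neither passed edgeR's test, and DESeq2 called Col6a5. In jejunum the log2 fold changes of Col6a5 and Col6a6 were -0.81 and -0.74. Col6a4 was at 22.8, 20.7 and 23.9 CPM in KO jejunum and 9.5, 8.51 and 12.2 in WT, higher in every KO library (1.16 ± 0.75, adjusted p = 0.542), and overlapped in colon (0.11).

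The multiplexins Col15a1 and Col18a1, proteoglycan-like collagens of basement membranes, were lower on average in KO. Col15a1 was at 24.2, 49.2 and 10.9 CPM in KO colon against 76.4, 47.1 and 84.2 in WT (-1.30 ± 0.50, adjusted p = 0.265), overlapping by 1 library. Col18a1 was at 137, 178 and 129 CPM in KO jejunum against 202, 225 and 301 in WT, without overlap (-0.71 ± 0.26, adjusted p = 0.278). Neither passed.

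Among FACIT and other collagens, Col14a1, a fibril-surface collagen, was lower in every KO bulk library of both tissues. It was at 76.6, 70.3 and 37.9 CPM in KO colon against 112, 129 and 120 (-0.96 ± 0.29, adjusted p = 0.175), and at 98.2, 107 and 160 in KO jejunum against 189, 171 and 283 (-0.82 ± 0.29, adjusted p = 0.262). Col16a1 was higher in every KO jejunum library, at 255, 102 and 123 CPM against 64.9, 69.8 and 78.3 (1.17 ± 0.35, adjusted p = 0.193), and stayed at 0.64 without m1. Neither gene passed. Col7a1, the anchoring fibril collagen, was at 9.19, 6.84 and 9.35 CPM in KO jejunum and 3.09, 2.65 and 3.68 in WT (1.43 ± 0.34, adjusted p = 0.116), and was 1.34 without m1. Col28a1 was at 16.9, 6.51 and 5.23 CPM against 3.72, 3.15 and 2.77 (1.56 ± 0.39, adjusted p = 0.127), with 0.85 left without m1. The rare Col22a1 was at 2.03, 3.02 and 1.49 CPM against 0.295, 1.08 and 0.639 (1.69 ± 0.47, adjusted p = 0.166). For Col7a1, Col28a1 and Col22a1 all KO jejunum libraries were above all WT jejunum libraries, and DESeq2 called each of them and Col16a1.

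None of the 11 laminin genes passed the adjusted threshold in edgeR's test in either tissue. In colon 10 of 11 log2 fold changes were positive, none reached an unadjusted p of 0.05 and their median was 0.26. Of all genes in colon 50.3% were positive and 14.5% reached that p, with a median of 0.0043. In jejunum 9 of 11 were positive, 4 were higher and 1 lower at an unadjusted p of 0.05, and the median was 0.52. Of all genes in jejunum 51.5% were positive, 7.52% were higher and 5.7% lower at that p, and the median was 0.02. Lamc1, the common gamma chain, was at 565, 423 and 510 CPM in KO jejunum and 343, 360 and 338 in WT (0.52 ± 0.22, adjusted p = 0.330). Lamc3, another gamma chain, was at 16.8, 16.3 and 29.8 against 9.58, 11.1 and 10.4 (1.02 ± 0.30, adjusted p = 0.189). In both genes every KO library lay above every WT library, and DESeq2 called Lamc3. The log2 fold change was 0.40 for Lamc1 without m1 and 0.66 for Lamc3 without t4.

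Among the alpha chains, Lama2, the chain of muscle basement membranes, was at 60.5, 88.7 and 73.8 CPM in KO jejunum and 67.4, 49.7 and 37.1 in WT, overlapping by 1 library (0.53 ± 0.23, adjusted p = 0.353), and did not separate in colon (0.12, adjusted p = 0.872). Lama4, of vessel walls, had log2 fold changes of 0.12 in colon and 0.24 in jejunum, and Lama5 of 0.63 and 0.34. The colon value of Lama5 rested on KO t6, which held 900 CPM beside 510 and 388 in the other KO libraries and 290 to 495 in WT, and it was 0.23 without t6. Of the beta chains, Lamb1 had 0.26 in colon and 0.46 in jejunum, and Lamb2 0.24 and -0.04. The adjusted p of Lama4, Lama5, Lamb1 and Lamb2 lay between 0.411 and 0.977 in edgeR's test.

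**Figure D2:**
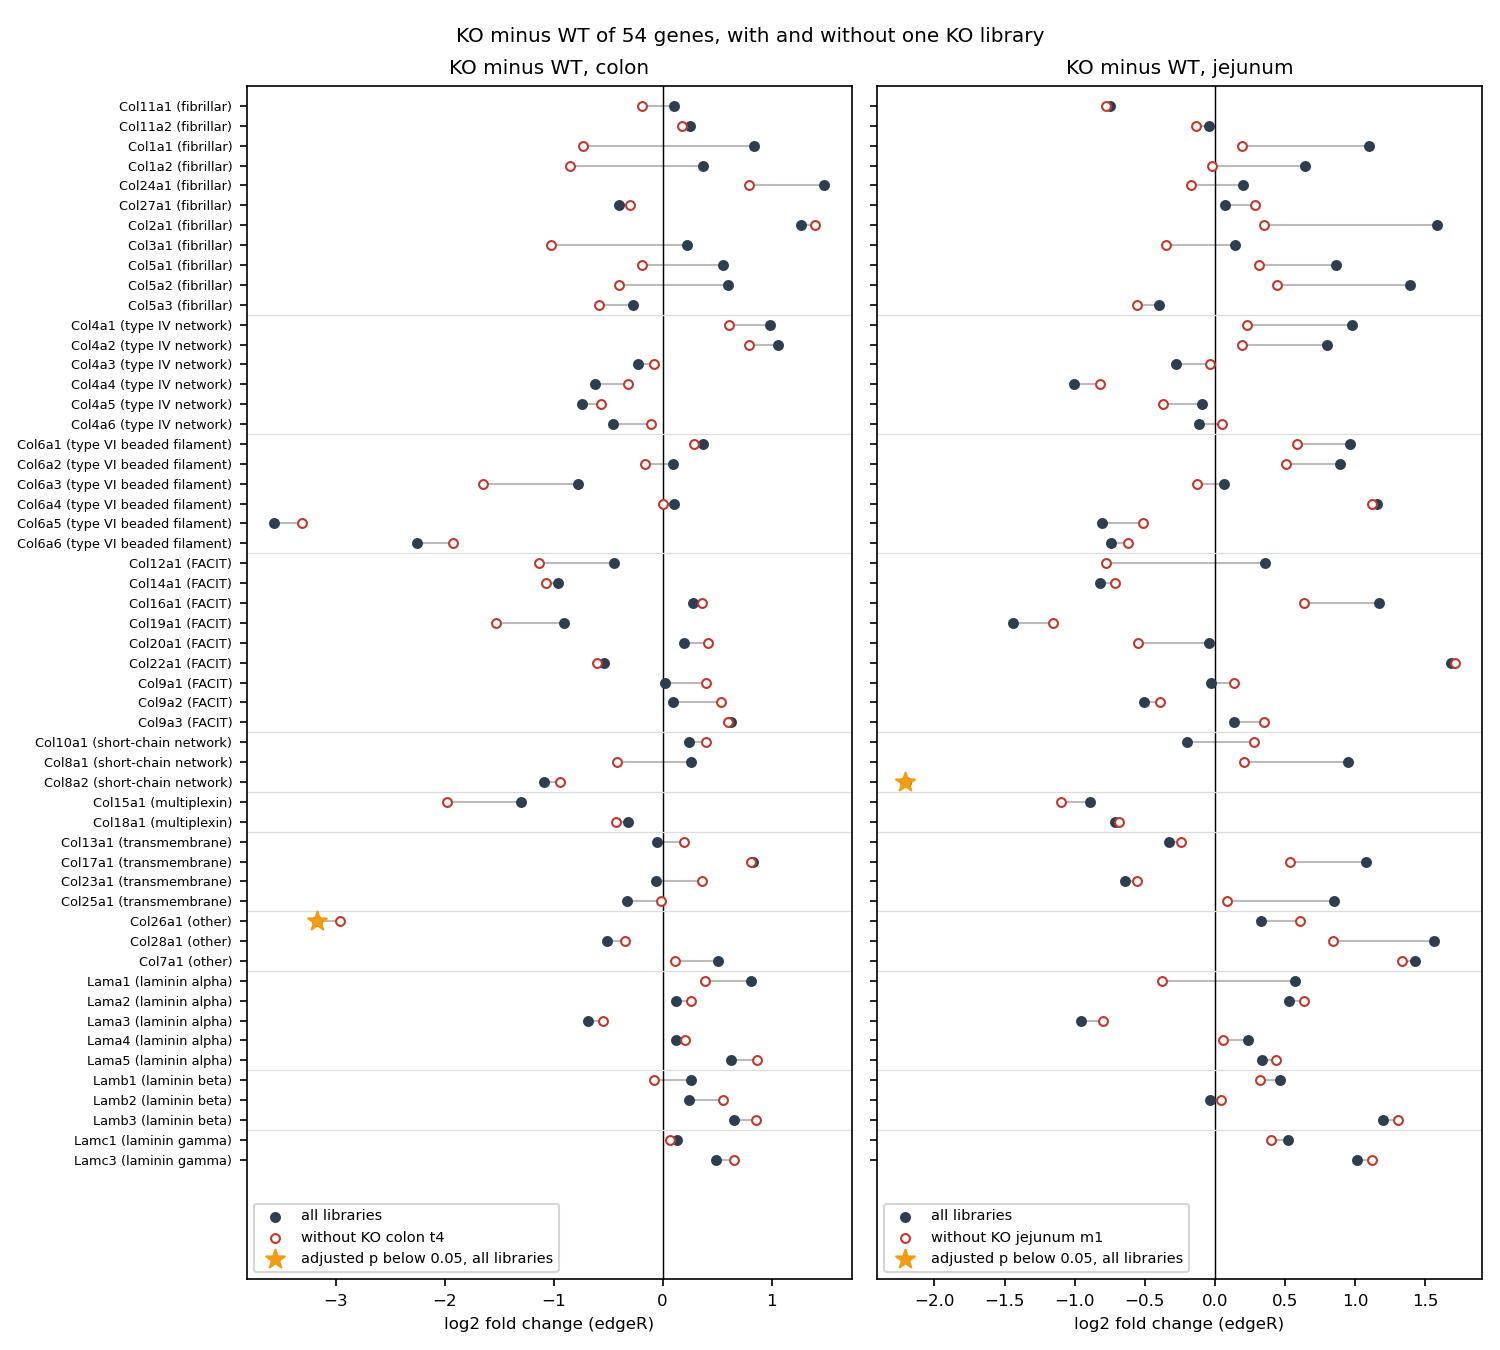
Log2 fold changes of KO over WT for 54 of the 55 genes in colon and in jejunum, ordered by role. Filled points use all 12 libraries, open points leave out KO colon t4 (colon) or KO jejunum m1 (jejunum), and a star marks an adjusted p below 0.05. Col26a1 in colon and Col8a2 in jejunum carry stars, and the open points of Col1a1, Col5a1 and Col5a2 in colon lie below 0.

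Many of the positive values rested on single libraries. Log2 fold changes of at least 0.5, a limit chosen after seeing the data, numbered 14 in colon and 23 in jejunum, and none of these genes passed edgeR's test, while DESeq2 called 1 of them in colon and 6 in jejunum. In colon 8 of the 14 lost more than 50% of their log2 fold change when 1 KO library was left out. For Col1a1, Col5a1, Col5a2, Col7a1 and Lama1 that library was t4, and the first 3 turned negative. For Lama5 and Lamb3 it was t6, with Lamb3 going from 0.65 to 0.09. In jejunum 11 of the 23 did so, each without m1, among them Col1a1, Col4a1, Col4a2, Col5a1, Col5a2, Col8a1, Col25a1, Col2a1 and Col17a1, and Col1a2 and Lama1 turned negative. The colon genes that kept at least 50% were Col4a1, Col4a2, Col24a1, Col17a1, Col2a1 and Col9a3, and those of jejunum included Col6a1, Col6a2, Col7a1, Col16a1, Col22a1, Col28a1, Lama2, Lamc1 and Lamc3. With KO colon t4 left out the median of the 55 genes in colon was -0.08, beside -0.02 over all genes. The limit of 0.5 and the losses without 1 library were not counted over all genes. It is therefore not shown that these members rest on single libraries more often than other genes.

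The difference between the colon and jejunum effects, tested as an interaction, passed for no member in edgeR's test, as for 0% of all genes. At an unadjusted p of 0.05 5 members passed (9.09%, against 4.16% of all genes), and DESeq2 called Col26a1, where it called 0.182% of all genes. The smallest p belonged to Col26a1 (-3.50 ± 0.76, adjusted p = 0.907), Col28a1 (-2.07), Col22a1 (-2.23), Col8a2 (1.12), Col6a5 (-2.75) and Col24a1 (1.28), the last 5 each with an adjusted p of 0.941. A gene called in 1 tissue is therefore not shown to differ between tissues. The 2 contrasts share no library.

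Genes that work on these chains are given beside the shares of all genes. Of all genes 0.388% passed edgeR's test in colon and 0.215% in jejunum. At an unadjusted p of 0.05 the shares were 14.5% and 13.2%, and DESeq2 called 4.6% and 3.85%. Of 17 chain maturation genes, such as prolyl hydroxylases and the chaperone Serpinh1, none passed edgeR's test in either tissue, 1 in each had an unadjusted p below 0.05, and DESeq2 called Fkbp10 in colon. The smallest p belonged to Fkbp10 and P3h1 in colon (1.05 and 0.54, adjusted p = 0.124 and 0.386) and to Fkbp10 and P4ha3 in jejunum (0.63 and 1.36, adjusted p = 0.347 and 0.478). Of 11 processing and crosslinking genes none passed, 2 (colon) and 1 (jejunum) were below an unadjusted p of 0.05, and DESeq2 called Lox in both tissues. Lox, the enzyme that crosslinks fibrils, was at 23.5 (m1), 417 (t4) and 89.2 (t6) CPM in KO colon against 18.1, 7.67 and 24.8, and at 330 (m1), 21.2 and 43.1 in KO jejunum against 11.3, 8.65 and 12.9 (3.39 and 3.58, adjusted p = 0.223 and 0.229). It was highest in the same 2 libraries as Col1a1. The second gene by p was Pcolce in colon (-1.16, adjusted p = 0.236) and Loxl2 in jejunum (1.18, adjusted p = 0.420). Of 7 basement membrane partners, Nid2, which links laminin to type IV collagen, passed in jejunum and was lower in KO. It stood at 13.9, 15.5 and 13.6 CPM in KO and 43.4, 43.1 and 66.2 in WT (-1.83 ± 0.23, adjusted p = 0.0143). None passed in colon (2 at an unadjusted p of 0.05, Npnt by DESeq2), where Npnt (-1.50, adjusted p = 0.114) and Pxdn (-0.85, 0.164) came first. Of 13 receptors none passed (4 at an unadjusted p of 0.05 in colon and 1 in jejunum, Itga1 in colon by DESeq2), with Itga1 and Itga7 first in colon (-0.84 and -0.72, adjusted p = 0.113 and 0.232) and Itgb1 and Ddr2 in jejunum (0.82 and -0.36, adjusted p = 0.264 and 0.432).

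Between WT colon and WT jejunum 3 of these 48 partner genes passed, all lower in colon, where 1.56% of all genes passed (0.862% lower). Npnt, a ligand of integrins, stood at 5.62, 4.2 and 5.19 CPM in WT colon and 135, 162 and 160 in WT jejunum (-4.93, adjusted p = 3.25e-04), and the KO libraries showed the same direction (-5.73, adjusted p = 1.33e-04). Nid2 (-1.08, adjusted p = 0.0414) and the laminin receptor Bcam (-1.20, 0.0414) were also lower in WT colon.

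The nuclei libraries show which cells held these transcripts. After filters 2632 WT and 1592 KO nuclei remained, with median depths of 1698 and 1984 UMIs, and 11 barcodes occurred in both libraries. Nuclei were clustered without the 55 genes, so their levels did not set the clusters, and clusters were named from marker lists. Of the 55 genes, 42 had at least 100 UMIs and are described by the class with their highest CPM, and the other 13 had 1 to 81 UMIs. Fibroblast-like nuclei were highest for 12 genes, mesothelial-like for 9, enteric glia-like for 8, smooth muscle-like for 4, interstitial cell of Cajal-like for 3 and enteric neuron-, blood endothelial- and lymphatic endothelial-like for 2 each. The class was the same in each library taken alone for 31 genes and not for 11 (Col14a1, Col20a1, Col26a1, Col3a1, Col4a5, Col4a6, Col5a1, Col5a2, Lama5, Lamb2 and Lamc3).

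Over both libraries fibroblast-like nuclei had the highest level of the fibrillar genes Col1a1, Col1a2, Col3a1, Col5a1 and Col5a2 and of Lama2. In the WT library alone this held for Col1a1, Col1a2 and Lama2, while Col5a1 was highest in smooth muscle-like and Col5a2 in enteric glia-like nuclei. Col3a1 was at 2967 CPM there (95% Poisson interval 2842 to 3097, which like all intervals here covers counting error alone) and next at 1707 in mesothelial-like nuclei, and in the WT library by itself mesothelial-like nuclei were highest. Lama2 was at 1982 CPM (1879 to 2088) with UMIs in 85.0% of fibroblast-like nuclei, and next at 87.9 CPM in enteric glia-like nuclei. Over both libraries Col5a2 (2145 CPM), Col8a1 (1941) and Col1a2 (1840) were also highest there. By library Col8a1 in fibroblast-like nuclei was at 619 CPM in WT and 2675 in KO, and Col1a2 at 678 and 2485. The background of free RNA was read in lymphocyte-like nuclei, whose cluster medians were 770.5 to 1106 UMIs against 1270 to 2397 in the fibroblast-like clusters. Col3a1 had UMIs in 15.1% of B lymphocyte-like and 24.5% of T lymphocyte-like nuclei against 71.8% of fibroblast-like ones, and Lama2 in 1.89% and 3.77%. Both genes in fibroblast-like nuclei were above this background.

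Enteric glia-like nuclei were the place of a separate group of collagens. Col11a1 was at 2143 CPM (2076 to 2211) with UMIs in 85.3% of these nuclei, and next at 461 CPM in lymphatic endothelial-like ones. Col12a1 (1383 CPM), Col18a1 (552), Col16a1 (300) and Col28a1 (186, with UMIs in 19.0%) had their highest level there too. Of these, Col16a1 and Col28a1 were higher in WT colon than in WT jejunum in the bulk libraries, where the 7 glial markers summed to 244 to 311 CPM in WT colon and 164 to 172 in WT jejunum, and the part of this in the bulk difference was not tested. T lymphocyte-like nuclei held 568 CPM of Col12a1, with UMIs in 11.3% of nuclei. Other background classes held less of it, with 102 CPM in WT and 108 in KO epithelial-like nuclei. Macrophage-like nuclei held 92.1 CPM in WT and 62.1 in KO, and B lymphocyte-like nuclei 0 and 43.0. The level read as background thus depended on the class, and the part of free RNA in lower levels of Col12a1 was not tested.

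Over both libraries Col4a1, Col4a2 and Col4a6 were highest in smooth muscle-like nuclei, and Col4a3, Col4a4 and Col4a5 in mesothelial-like ones. In the WT library alone Col4a5 was highest in fibroblast-like nuclei, at 508 CPM. Col4a1 was at 696 CPM (669 to 723) in smooth muscle-like and 665 (607 to 728) in fibroblast-like nuclei, with both libraries summed. Within each library it was higher in smooth muscle-like nuclei, at 423 CPM (397 to 451) against 266 (206 to 338) in WT and 1122 (1069 to 1178) against 887 (803 to 978) in KO. Over both libraries Col4a1 was at 173 and 307 CPM in B and T lymphocyte-like nuclei. Col4a2 was at 459 CPM in smooth muscle-like and 401 in fibroblast-like nuclei. Col4a6 was at 154 CPM in smooth muscle-like and 151 in mesothelial-like nuclei. In mesothelial-like nuclei Col6a1 was at 545 CPM, Col4a5 at 366, Col6a2 at 362, Col4a4 at 217 and Lama5 at 183, with Col4a3, Col8a2, Lamb2 and Lamc3 highest there at lower levels. Lama5, Lamb2 and Lamc3 were at 144, 43.2 and 14.4 CPM in B lymphocyte-like nuclei, with intervals that overlap those of mesothelial-like nuclei, and in the WT library alone each was highest in a lymphocyte-like class, so these 3 are not separated from background. Col8a2, called in the bulk jejunum, had 56.5 CPM (44.9 to 70.2) in mesothelial-like nuclei of colon and 0 UMIs in the 53 B and the 53 T lymphocyte-like nuclei, which allow up to 53.1 and 56.6 CPM by the upper interval bound. In bulk jejunum the mesothelial markers summed to 548 to 1410 CPM in KO and 907 to 1856 in WT, and their part was not tested.

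The remaining classes each held a few chains. Col27a1 was highest in interstitial cell of Cajal-like nuclei (775 CPM, 670 to 891), with Col24a1 (175) and Col13a1 (51.7). Lama4 was highest in lymphatic endothelial-like nuclei (1264 CPM, 1125 to 1415; 534 in smooth muscle-like), with Col23a1 (275). Lama3 (301 CPM) and Col15a1 (148) were highest in blood endothelial-like nuclei, and Col25a1 (290) and Col5a3 (115) in enteric neuron-like ones.

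**Figure D3:**
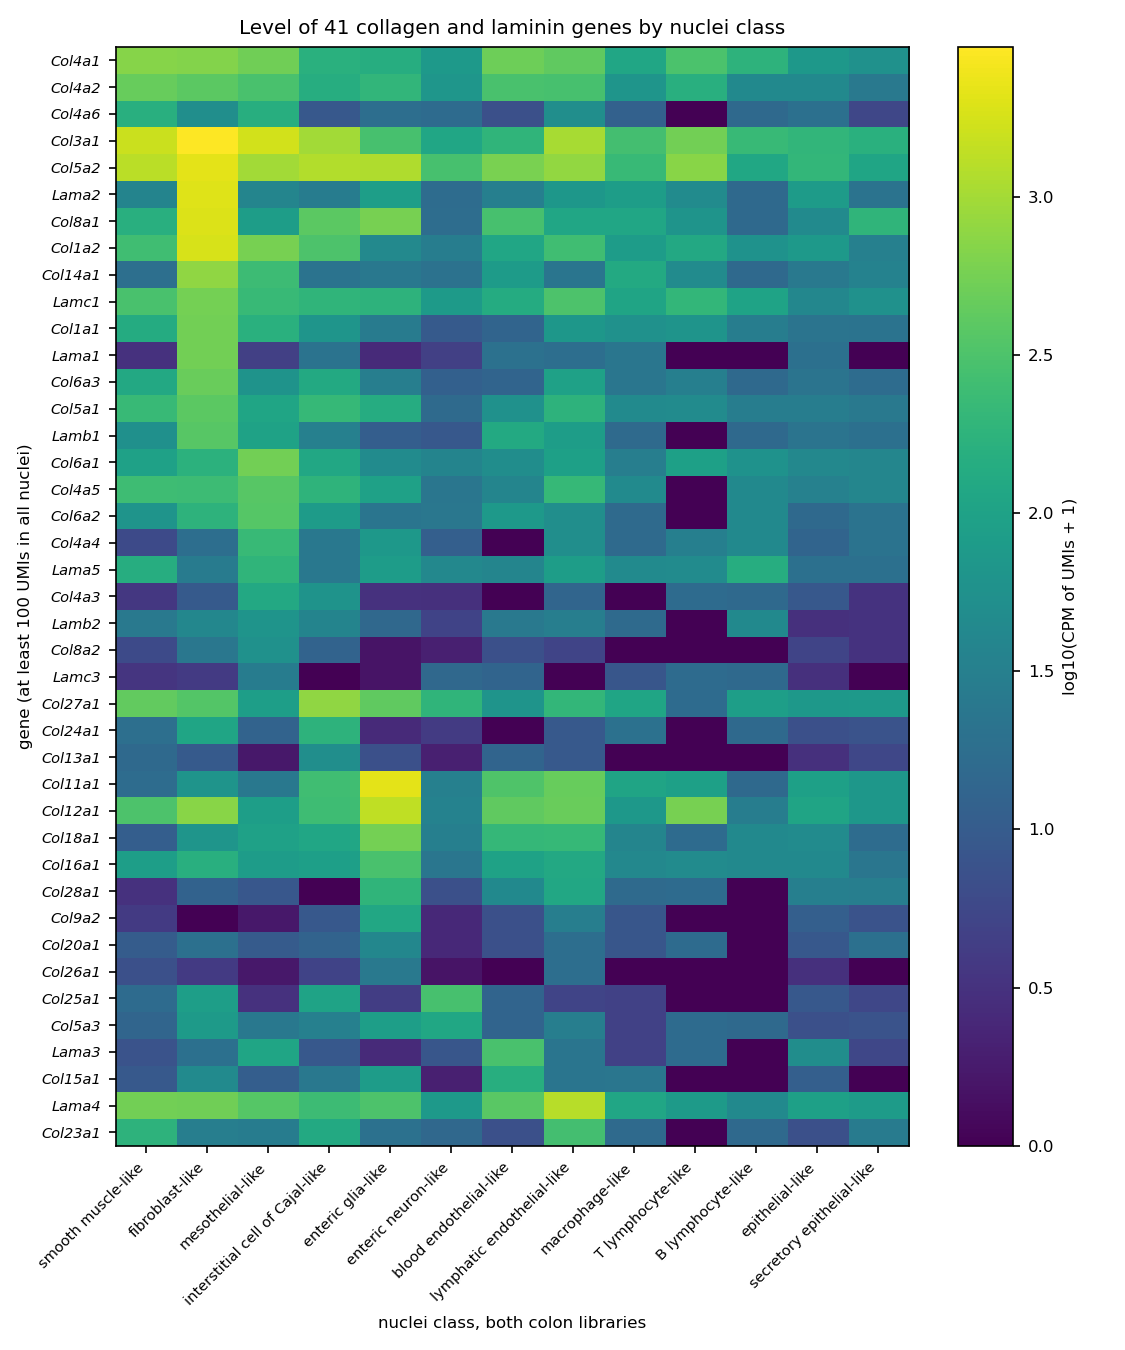
Level of 41 of the 42 genes with at least 100 UMIs in 13 nuclei classes of colon, both libraries summed, as log10(CPM + 1). Rows are genes ordered by the class of their highest level, and columns are classes. Lama2 stands out in fibroblast-like nuclei (1982 CPM), Col11a1 in enteric glia-like (2143) and Lama4 in lymphatic endothelial-like (1264).

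With 1 nuclei library per genotype there was no test, and the values compare 2 libraries. None of the 4 smooth muscle-like clusters compared had a listed smooth muscle marker among its leading genes, and cluster 1 had a marker of mural cells there. Libraries were therefore compared by cluster and not by class. Counted were 10 clusters with at least 20 nuclei in each library, 4 smooth muscle-like, 2 fibroblast-like, 2 mesothelial-like and 2 enteric glia-like. Smooth muscle-like cluster 0 (338 WT and 18 KO nuclei) and mesothelial-like cluster 14 (4 and 94) were left out by that limit. Cluster 10, left unnamed by a limit set after seeing the clusters, held 2.09% of WT and 3.02% of KO nuclei. Col4a1 was higher in the KO library, with Poisson intervals apart, in 7 of 10. In the smooth muscle-like clusters 1, 12, 13 and 17 it was at 1195, 960, 1141 and 1294 CPM in KO and 410, 485, 219 and 345 in WT. In the fibroblast-like clusters 8 and 22 it was at 719 and 1014 CPM against 246 and 304, and in mesothelial-like cluster 9 at 1046 against 189. The other mesothelial-like cluster and both glia-like clusters overlapped. In epithelial-like nuclei, taken as background, Col4a1 was at 118 CPM (74.1 to 179) in KO and 39.6 (20.5 to 69.2) in WT, so this background was also higher in KO with intervals apart. The same held in T lymphocyte-like nuclei (40 KO and 13 WT), with 435 CPM (266 to 672) in KO and 0 UMIs in WT, which allow up to 192 CPM. The 20 KO UMIs there lay in 15% of the nuclei. The Poisson interval does not cover such clumping, so it may be too narrow. Whether this value is free RNA or comes from doublets was not tested. In B lymphocyte-like nuclei Col4a1 was at 129 against 261 CPM and in macrophage-like nuclei at 109 against 118, with overlapping intervals. The part of free RNA in the cluster values was not tested.

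Other fibroblast and matrix chains showed the same side in part of the clusters. Col4a2 was higher in the KO library in 8 of 10 clusters and Col5a2 in 7. Col3a1 was higher in 6 and lower in 1, Col12a1 and Col8a1 each higher in 5 and lower in 1, and Col1a1 and Col1a2 higher in 4. Col11a1 was lower in 3 clusters and higher in 0. Col15a1, Col23a1, Col27a1 and Col4a6 were each lower in 2 and higher in 0. Such counts, that of Col4a1 included, were not made over all genes, and all 10 clusters come from the same 2 libraries. A rise particular to these chains is therefore not shown. Background levels in KO against WT were 280 (209 to 367) against 135 CPM (97.2 to 184) for Col3a1, 237 against 178 for Col5a2 and 53.8 against 36.3 for Col4a2 in epithelial-like nuclei. In T lymphocyte-like nuclei they were 652 against 261 CPM for Col3a1, 848 against 365 for Col5a2 and 196 against 52.2 for Col4a2. The 39 KO UMIs of Col5a2 there lay in 10% of the nuclei, and the 7 of WT in 30.8%. The 30 KO UMIs of Col3a1 were spread over more nuclei. These T lymphocyte-like levels may therefore not be an even background, which was not tested. Only the epithelial-like difference of Col3a1 had intervals apart among these 6 differences. Other background classes went the other way for Col3a1 and Col5a2. In B lymphocyte-like nuclei Col3a1 was at 86.1 CPM (23.4 to 220) in KO against 479 (239 to 857) in WT. In macrophage-like nuclei Col5a2 was at 135 CPM (87.9 to 197) against 434 (299 to 610). Intervals overlapped for Col3a1 in macrophage-like nuclei (228 against 395) and Col5a2 in B lymphocyte-like ones (86.1 against 174). They also overlapped for Col4a2 in both classes. In the fibroblast-like clusters 8 and 22 Col8a1 was at 2002 and 3180 CPM in KO and 462 and 925 in WT. Col4a5 went the other way in 3 clusters, with 61.6 against 606 CPM in cluster 8, 112 against 316 in cluster 22 and 200 against 363 in cluster 9, and was higher in cluster 1 (309 against 199). Lama2 was higher in 1 cluster and lower in 2, and Lamc1 higher in 1. Col14a1, lower in every bulk KO colon library, was split in the nuclei. It was higher in KO in both fibroblast-like clusters and lower in both mesothelial-like clusters. Its highest class was fibroblast-like in the KO library (1068 CPM) and mesothelial-like in the WT library (313 CPM). Lama1, Lamb1, Lamb2, Lamc3, Col8a2, Col26a1, Col4a3 and Col4a4 had overlapping intervals in all 10. In KO the fibroblast-like clusters were also deeper, with medians of 1985 and 2397 UMIs against 1270 and 1698, and the part of depth was not tested.

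**Figure D4:**
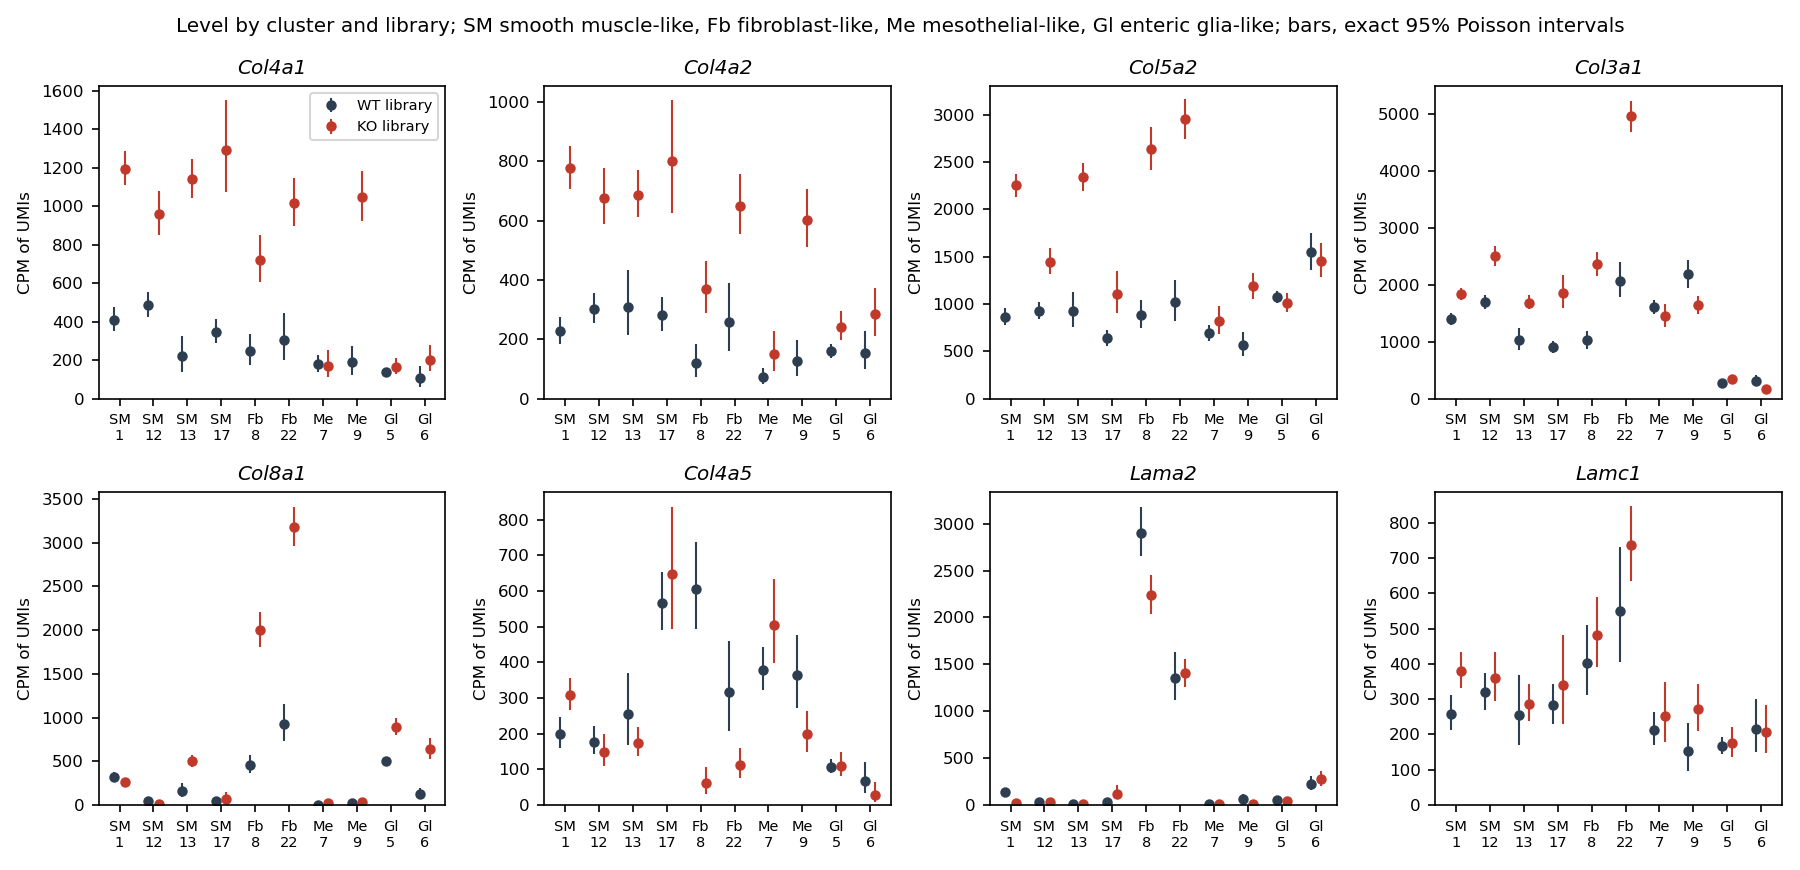
Levels of 8 genes (CPM) in 10 nuclei clusters of colon, WT and KO library side by side, with exact 95% Poisson intervals for counting error. Each point is the sum over the nuclei of 1 cluster in 1 library. Col4a1 is higher in KO in all 4 smooth muscle-like clusters, and Col4a5 is lower in KO in the fibroblast-like clusters 8 and 22.

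Accessible chromatin was called in each nuclei library separately, so a missing region can reflect the calling. A region covered the annotated start of 14 of 55 members in WT (25.5%, against 46.6% of 21755 protein-coding genes) and of 7 in KO (12.7%, against 39.9%), with 4 in both. WT had 35003 regions and KO 26493.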

How the data were processed

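For the 12 bulk libraries (4 groups of 3) the authors deposited raw counts per gene. The submitters' processing notes name STAR 2.0.4b, Subread, featureCounts 1.4.5 and edgeR, and the build GRCm38. No label states whether strand was used, and 16 of the 55 genes overlap exons of another gene, so their counts may hold that gene's reads. Of 40757 entries 276 repeats were dropped. The members, lists and tests were chosen with earlier results of these data known. Counts were fitted with edgeR 4.0.16 (R 4.3.3): filterByExpr (20886 genes), TMM, a mean per group over all 12 libraries, robust quasi-likelihood tests, two-sided, Benjamini-Hochberg adjustment over all genes and a threshold of 0.05. Errors of fold changes are SE. The script was tested on simulated data. Named were members past the threshold or, where fewer than 6 passed, the 6 with the smallest p, 16 common chains, the partner genes past the threshold or the 2 of smallest p per list, up to 5 members per nuclei class, and the 3 genes most correlated with Col1a1, Col4a1 and Lama2. Other members were named after their values were seen, and 1 member is counted but not reported here by name.

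For the 2 nuclei libraries the authors deposited counts per barcode of genes and regions, and per the file headers the matrices come from cellranger-arc-2.0.0. All gene values were even and were divided by 2 to give UMIs, an inference from the values. Nuclei with at least 500 UMIs, at least 300 genes and at most 5% mitochondrial UMIs were kept. Scrublet marked 0.265% (WT) and 0.125% (KO) as doublets, too few to have worked, so doublets are in effect still in. Nuclei were clustered with scanpy 1.11.5 at resolution 1.0, and CPM are over summed UMIs with exact 95% Poisson intervals. Alternatives were other scaling, filters, tools (DESeq2 1.42.0, limma 3.58.1 voom), libraries, replicate blocks and clusterings.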

Additional observations from a re-analysis of the deposited data

Results flagged for a closer look

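The effects of KO in colon and jejunum had opposite signs in every library for 2 members. Col28a1 was at 20.9, 13.6 and 19.2 CPM in KO colon against 28.2, 22 and 26.3 in WT colon, below WT in all 3 libraries, and was above WT in all 3 libraries of KO jejunum. The difference between the log2 fold changes was -2.075 (unadjusted p = 0.00236, adjusted p = 0.941 in edgeR's quasi-likelihood test). Col22a1 was at 1.17, 1.21 and 0.962 CPM in KO colon against 1.98, 1.26 and 1.64 in WT colon and was likewise higher in every KO jejunum library, with a difference of -2.23 (unadjusted p = 0.00559, adjusted p = 0.941). Neither difference passed the test over all genes. The 2 members were picked by this pattern, so the unadjusted p-values are not a separate check of it. The share of all genes with opposite separation in the 2 tissues was not computed. Of all genes, 19.2% in colon and 22.2% in jejunum had no overlap between KO and WT in either direction. Col22a1 overlaps the antisense gene Gm16308 by 16 exon bases, and its counts are low.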

How the results depend on the processing

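DESeq2 called more members than edgeR: 4 against 1 for KO minus WT in colon, 7 against 1 in jejunum, 1 against 0 for the difference, 7 against 4 between WT tissues and 8 against 0 between KO tissues, where DESeq2 called 4.6%, 3.85%, 0.182%, 5.53% and 6.83% of all genes. In colon the count was 0 with limma voom, with total counts, with the 6 libraries compared alone and with the replicate block, and in jejunum 0 with the replicate block. The 6 libraries alone in colon and the block in either tissue called 0% of all genes, and voom and total counts in colon 0.455% and 0.45%. Between WT tissues it was 8 with the 6 libraries compared (4.66% of all genes) and 1 with the replicate block (Col28a1, 0.139%), and between KO tissues 1 with no filter (0.86%) and 1 with the filter of 1 CPM (2.33%). Leaving out 1 library gave 0 to 1 in colon and in jejunum, 0 for the difference, 2 to 5 between WT tissues and 0 to 4 between KO tissues, and medians of -0.0787 to 0.246 in colon and 0.0898 to 0.414 in jejunum. Leaving out KO colon t4 and KO jejunum m1 together, chosen after seeing the data like the counts with total-count scaling, gave 2 calls in colon (Col12a1 and Col26a1, lower, 1.44% of all genes), 12 between WT tissues (4.92%), 8 between KO tissues (3.24%) and a colon median of -0.0651.

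Of 1296 alternative values of 62 named log2 fold changes, 1194 kept direction and side of the threshold, 31 gained a call, 31 lost one and 40 changed sign. In colon the range over single libraries left out was -0.726 to 1.303 for Col1a1, -0.851 to 0.783 for Col1a2, -1.028 to 0.645 for Col3a1, -0.192 to 0.860 for Col5a1, -0.404 to 0.991 for Col5a2 and -0.161 to 0.328 for Col6a2. It was -0.0810 to 0.292 for Lama4, -0.0831 to 0.470 for Lamb1 and -0.00861 to 0.377 for Lamc1. In jejunum it was -0.0169 to 0.916 for Col1a2, -0.345 to 0.392 for Col3a1, -0.130 to 0.225 for Col6a3 and -0.155 to 0.0450 for Lamb2. Without both libraries together colon gave -0.714 for Col1a1, -0.838 for Col1a2, -1.016 for Col3a1, -0.179 for Col5a1, -0.391 for Col5a2, -0.148 for Col6a2 and -0.0693 for Lamb1. Jejunum then gave -0.0164 for Col1a2, -0.344 for Col3a1, -0.130 for Col6a3 and 0.0454 for Lamb2. With limma voom colon gave -0.0239 for Col1a2 and -0.172 for Col3a1, and with total counts jejunum gave -0.0109 for Col6a3. With the replicate block colon gave -0.0636 for Col1a1, -0.516 for Col1a2, -0.579 for Col3a1, -0.3665 for Col5a2 and -0.317 for Col6a2, and jejunum -0.104 for Col1a2, -0.5175 for Col3a1, -0.725 for Col6a3 and 0.404 for Lamb2. The cause was not tested. Total counts moved the median of all genes by over 0.1 between KO tissues alone, from 0.03 to 0.14.

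The tags were not shown to pair the libraries. Same-tag correlations of deviations between colon and jejunum were 0.1002, -0.00797 and 0.0609 in WT and -0.163 and -0.0945 in KO. With 3 libraries per group such correlations cannot exclude pairing. KO and WT share 1 tag per tissue, so that block rests on few libraries. With 3 libraries per group a member without a call is not shown to be unchanged. The class with the highest level was kept for 38 of 42 members with coarser clustering, 38 with doublets left in, 41 with at least 1000 UMIs and 42 with finer clustering.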
